A study of Mus musculus with 10 samples.

Results

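The photoreceptor genes that end the light response and carry its calcium feedback were examined as a group of 10, namely Grk1, Rcvrn, Rgs9, Rgs9bp, Gnb5, Gucy2e, Gucy2f, Guca1a, Guca1b and Slc24a1. They were chosen by symbol for their role, with earlier results of these data known. All 10 were found among the 24736 gene symbols of the mRNA table. RNA came from whole eyeballs. The mice were females of the outbred Kunming stock and, per the labels, 4 weeks old. Blue-light mice were kept under an 18 W blue lamp inside a dark container and gave 3 libraries (blue A, B and C). Mice kept in natural light gave 2 libraries (control A and B). Sample titles carry 14d, read here as day 14, and no transgene or drug is named for either group. Whether each library stands for its own animal is not stated, so the p-values speak of the spread among the libraries only, and part of that may be technical.

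Light activates the visual pigment, transducin then switches on a phosphodiesterase, cGMP falls, and the cGMP-gated channels close. To recover, the cell must shut off the pigment and transducin and make new cGMP. With the channels closed, the exchanger keeps removing calcium, and the fall in calcium is the signal that relieves the brake on the pigment's kinase and switches on guanylate cyclase. Mutations in several of these genes cause retinal dystrophy or stationary night blindness in people.

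All 10 genes had lower levels under blue light than in natural light in every library. In 8 of the 10 the difference passed the test over all genes, the quasi-likelihood test of edgeR, with p-values adjusted over 18988 tested genes by the Benjamini-Hochberg method and a threshold of 0.05. The background was 1.55% of all tested genes called lower. As the 10 were chosen with earlier results known, this contrast describes the group and is no independent test. The 2 genes that missed the threshold were Gucy2e and Rcvrn. Log2 fold changes (blue light minus natural light) ran from -1.98 for Guca1b to -0.79 for Rgs9, with a median of -1.39, beside a median of -0.0056 over all tested genes. Every blue library lay below both controls for 10 of 10 genes, a pattern that 20.1% of all tested genes also showed. DESeq2 called 10 of 10 lower, against a background of 4.78%, and limma-voom called 8, against 1.72%. The calls depended on the libraries fitted: edgeR called 0 of the 10 without blue C, 0 without control A and 0 without control B. The background was then 0.0266%, 0.0103% and 0% of all tested genes called lower, so calls were lost across the whole table. In each of these fits all 10 kept an unadjusted p under 0.05, and the smallest adjusted p was 0.0738, 0.122 and 0.0881 in that order.

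Levels are given as CPM, the values scaled to a common library total after TMM normalisation, with mean ± SD (n = 3 blue and n = 2 control libraries). They are not corrected for transcript length and so are not compared between genes. In whole-eye RNA, fewer rods and less RNA per rod cannot be told apart.

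**Figure D1:**
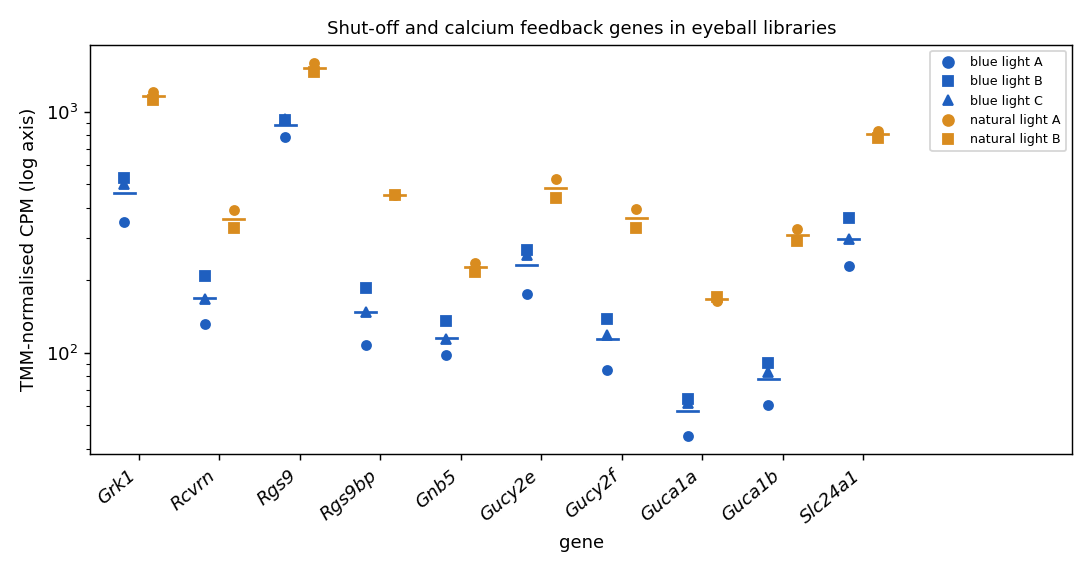
TMM-normalised CPM (log axis) of each gene in each library, with blue-light libraries left of natural-light libraries and short bars at the group means. Every blue library lies below both controls for all 10 genes, and blue A is the lowest library for each.

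Shut-off begins at the light-activated pigment, which the photoreceptor kinase Grk1 phosphorylates so that arrestin can bind. Grk1 stood at 351, 533 and 504 CPM in blue A, B and C, against 1215 and 1125 CPM in control A and B. The lowest control was 2.11-fold above the highest blue library. Grk1 averaged 462 ± 97.99 CPM under blue light and 1170 ± 63.9 CPM in natural light, with a log2 fold change of -1.34 (SE 0.18, adjusted p = 0.0293 in edgeR). Recoverin (Rcvrn) holds this kinase back while calcium is high. It stood at 131, 209 and 167 CPM in the blue libraries and at 391 and 331 CPM in the controls. The groups did not overlap, but Rcvrn missed the threshold, with a log2 fold change of -1.09 (SE 0.20, adjusted p = 0.0585 in edgeR). It passed in DESeq2 (adjusted p = 1.397e-05), with a mean CPM of at least 5 as the filter (adjusted p = 0.0461 in edgeR) and without blue B (adjusted p = 0.0446 in edgeR).

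Rcvrn lies on chromosome 11 from 67695326 to 67703355 (mm10), inside the annotated span of Glp2r (67664156 to 67771184), the receptor for a gut peptide. Glp2r stood at 24.9, 36.1 and 31.7 CPM in the blue libraries, against 63.2 and 72.4 CPM in the controls, with a log2 fold change of -1.13 (SE 0.16, adjusted p = 0.0336 in edgeR). Strand use in the counting is not stated, so reads of the pair may be shared and the value of either gene is uncertain. With both summed, the log2 fold change of the locus was -1.10 (adjusted p = 0.0503 in edgeR).

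Transducin is switched off when it hydrolyses its GTP, a step that a complex of 3 proteins speeds up. Rgs9 is the GTPase-accelerating subunit, and the long form of Gnb5 is its G protein beta subunit. Rgs9bp is the anchor that holds the complex on the disc membrane. Values are per gene symbol, so the forms of Gnb5, and the cells it comes from, are not told apart. Rgs9 stood at 784, 930 and 939 CPM in blue A, B and C, against 1593 and 1462 CPM in control A and B, with a log2 fold change of -0.79 (SE 0.10, adjusted p = 0.0283 in edgeR). This was the smallest log2 difference of the 10 genes, and the level left under blue light was 57.9% of the natural-light mean. Rgs9bp stood at 108, 187 and 148 CPM in the blue libraries, against 450 and 452 CPM in the controls. Blue A held the least, and the 3 blue values differed by up to 1.73-fold, the widest spread within the blue group of any of the 10 genes. Rgs9bp fell by 1.61 (SE 0.22, adjusted p = 0.0285 in edgeR), to 32.7% of the natural-light mean. Gnb5, which in bipolar cells also pairs with Rgs7 and Rgs11, stood at 97.6, 136 and 114 CPM under blue light, against 237 and 218 CPM in natural light. It fell by 0.97 (SE 0.14, adjusted p = 0.0350 in edgeR). With library totals as the only scaling, Rgs9 and Gnb5 missed the threshold (adjusted p = 0.0650 and 0.0625 in edgeR), and Rgs9 also missed it without blue B (adjusted p = 0.0680 in edgeR).

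The annotated span of Gnb5 on chromosome 9 (75306288 to 75345923, mm10) overlaps the end of Myo5c, a class V myosin gene, which stood at 4.51, 3.36 and 3.54 CPM in the blue libraries and 3.49 and 5.82 CPM in the controls. Summing both gave a log2 fold change of -0.95 (adjusted p = 0.0313 in edgeR), so the overlap moved the Gnb5 value little. Rgs9 on chromosome 11 (109225348 to 109298181) overlapped no other gene of the table, nor did Rgs9bp on chromosome 7 (35578993 to 35585582).

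New cGMP is made by the retinal guanylate cyclases, Gucy2e, which serves rods and cones, and Gucy2f, which serves mainly rods. Gucy2f stood at 85.0, 139 and 118 CPM in blue A, B and C, against 396 and 331 CPM in control A and B. Its log2 fold change was -1.67 (SE 0.21, adjusted p = 0.0249 in edgeR), and it fell to 31.4% of the natural-light mean. Gucy2e stood at 176, 266 and 254 CPM in the blue libraries and at 528 and 441 CPM in the controls. The groups did not overlap, and Gucy2e missed the threshold with a log2 fold change of -1.06 (SE 0.19, adjusted p = 0.0594 in edgeR). It passed in DESeq2 (adjusted p = 1.776e-05), with a mean CPM of at least 5 as the filter (adjusted p = 0.0468 in edgeR) and without blue A (adjusted p = 0.0332 in edgeR).

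The cyclases are driven by the guanylate cyclase activating proteins Guca1a (GCAP1) and Guca1b (GCAP2), which activate the cyclase when calcium falls and inhibit it when calcium is high. Guca1b stood at 60.7, 90.7 and 83.0 CPM in the blue libraries, against 326 and 290 CPM in the controls. The lowest control was 3.20-fold above the highest blue library, the widest gap among the 10 genes. Guca1b had the largest log2 difference of the group and fell by 1.98 (SE 0.17, adjusted p = 0.0157 in edgeR), which left 25.3% of the natural-light mean. Guca1a stood at 45.4, 64.1 and 62.0 CPM under blue light, against 164 and 171 CPM in natural light. It fell by 1.55 (SE 0.16, adjusted p = 0.0183 in edgeR), to 34.1% of the natural-light mean.

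Both activator genes sit next to each other on chromosome 17 of mm10, Guca1b from 47384694 to 47392967 and Guca1a from 47394557 to 47413514, with 1589 bases between their spans. Mrps10, a mitochondrial ribosome gene on the other side of Guca1b, stood at 10.3, 9.38 and 10.2 CPM in the blue libraries and 9.96 and 9.81 CPM in the controls, with a log2 fold change of 0.0068 (SE 0.11, adjusted p = 0.987 in edgeR). The far end of the Guca1a span overlaps 1700001C19Rik, which held under 1 CPM in every library.

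Promoter windows, from 250 bases before the start of transcription to 50 bases after it, were found for 7 of the 10 genes in the RefSeq-derived table (GRCm38.p6). They were searched on both strands for the core TAATCC, read as GGATTA on the other strand, and for its form TAATCT, read there as AGATTA, which the photoreceptor factor CRX binds. They were also searched for TGCTGA, read as TCAGCA on the other strand, part of the site of the rod factor NRL. No matches overlap in the windows shown. A core of either CRX form was in 5 of the 7 windows (Gucy2e, Gucy2f, Guca1a, Gnb5 and Rgs9), and in 14.4% of all 32851 promoter windows. The NRL partial site was in 2 of the 7 (Grk1 and Rgs9), and in 19.5% of all windows. In Grk1 it begins at base 30 counted from the start, within the transcribed part. The windows of both cyclases and of Guca1a are shown, 5' to 3' on the gene's strand, with matches in capitals. Each of them holds a CRX core, and the windows without one (Grk1 and Slc24a1) are not shown. Gucy2e lies on the minus strand of chromosome 11 (chr11:69236973-69237272), with GGATTA 42 bases before the start. Gucy2f lies on the minus strand of chromosome X (chrX:142196887-142197186), with TAATCT beginning 146 bases before the start, GGATTA 84 bases and TAATCC 59 bases before it. Guca1a lies on the minus strand of chromosome 17 (chr17:47400557-47400856), with GGATTA 57 bases before the start.
Gucy2e: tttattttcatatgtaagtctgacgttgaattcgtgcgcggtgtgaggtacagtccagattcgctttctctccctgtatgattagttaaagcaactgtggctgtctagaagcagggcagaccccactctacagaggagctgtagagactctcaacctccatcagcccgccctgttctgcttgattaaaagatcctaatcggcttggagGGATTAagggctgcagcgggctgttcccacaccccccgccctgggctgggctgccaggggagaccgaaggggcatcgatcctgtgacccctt
Gucy2f: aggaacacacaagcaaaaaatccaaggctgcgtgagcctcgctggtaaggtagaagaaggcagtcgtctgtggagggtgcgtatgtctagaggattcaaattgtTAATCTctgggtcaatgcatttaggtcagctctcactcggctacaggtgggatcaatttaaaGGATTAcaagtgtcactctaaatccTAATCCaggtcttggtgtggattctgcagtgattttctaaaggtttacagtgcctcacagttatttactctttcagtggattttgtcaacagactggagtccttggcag
Guca1a: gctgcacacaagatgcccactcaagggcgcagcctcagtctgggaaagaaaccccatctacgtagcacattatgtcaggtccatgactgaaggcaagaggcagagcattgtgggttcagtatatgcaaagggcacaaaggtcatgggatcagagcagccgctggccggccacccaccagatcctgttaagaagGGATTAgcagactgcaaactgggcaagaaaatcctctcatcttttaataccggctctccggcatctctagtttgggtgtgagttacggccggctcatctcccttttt

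For each of these 3 genes the annotated span reaches further upstream than the start used for the window, so other starts exist. A match is a description of the letters and does not show that a factor binds there. Slc24a1 held none of the 3 motifs in its window, which says only that these letters are not in those bases.

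The last gene of the group, Slc24a1, encodes the rod exchanger that trades sodium for calcium and potassium and so lowers calcium in light. It stood at 230, 363 and 298 CPM in blue A, B and C, against 835 and 781 CPM in control A and B. Slc24a1 averaged 297 ± 66.3 CPM under blue light and 808 ± 38.6 CPM in natural light, with a log2 fold change of -1.44 (SE 0.18, adjusted p = 0.0258 in edgeR). Its relative Slc24a2 stood at 65.6, 39.1 and 27.8 CPM in the blue libraries and at 35.3 and 33.1 CPM in the controls. The groups overlapped, and Slc24a2 had a log2 fold change of 0.37 (SE 0.35, adjusted p = 0.668 in edgeR).

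**Figure D2:**
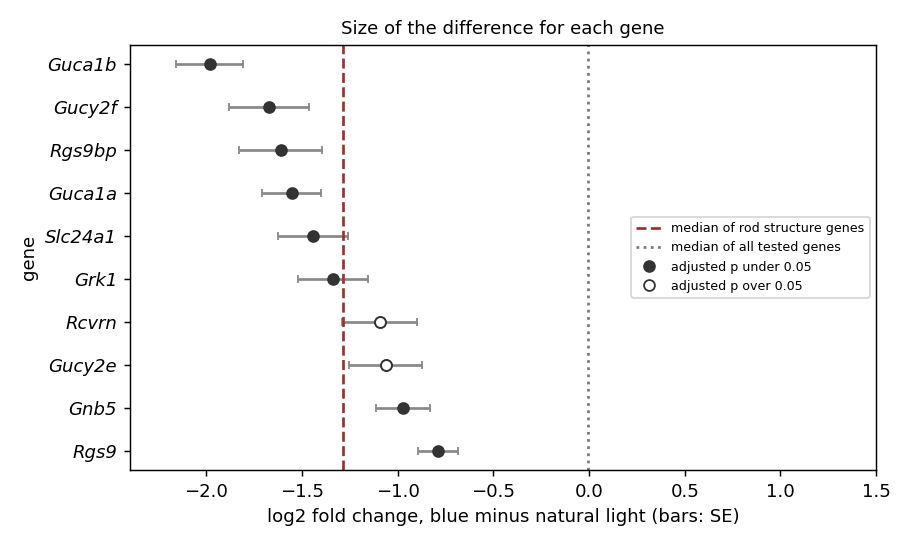
Log2 fold change of each gene (blue minus natural light, bars are SE), with filled points for an adjusted p under 0.05 and open points for one over it. The values run from -1.98 for Guca1b to -0.79 for Rgs9, on both sides of the median of the rod structure genes (-1.28).

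The genes differed in size of change even within a step, so the log2 ratio of partners was taken in each library. For 7 pairs the 2-sided exact permutation test over libraries can give no p below 0.2, so no pair could pass, and 6 of the 7 reached that p (adjusted p = 0.233 over the pairs). The ratios are therefore given as measured values. The log2 ratio of Rgs9 to Rgs9bp was 2.86, 2.32 and 2.66 in blue A, B and C, against 1.82 and 1.69 in control A and B. That is a 1.81-fold shift towards Rgs9, and the groups did not overlap.

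The log2 ratio of Rgs9 to Gnb5 was 3.0, 2.77 and 3.04 in the blue libraries and 2.75 and 2.75 in the controls, a shift of 0.19, with blue B close to both controls. The log2 ratio of Gucy2e to Gucy2f was 1.05, 0.94 and 1.10 under blue light and 0.42 and 0.41 in natural light, a 1.53-fold shift towards Gucy2e. Guca1b to Guca1a stood at a log2 ratio of 0.42, 0.50 and 0.42 in blue libraries and 0.99 and 0.76 in controls, a shift of -0.43. In each of these pairs the blue and control ratios did not overlap.

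Guca1b was also set against Gucy2e, as an activator and a cyclase. This pair joins the largest and the smallest log2 difference among the activator and cyclase genes. Guca1a and Gucy2f had log2 fold changes of -1.55 and -1.67, so the values below hold for this pair and not for activators against cyclases in general. The log2 ratio of Guca1b to Gucy2e was -1.53, -1.55 and -1.61 in the blue libraries, against -0.69 and -0.60 in the controls, a difference of -0.92 with an SD of 0.042 among blue and 0.066 among control libraries. Rcvrn to Grk1 differed by 0.25 (blue mean -1.45 ± 0.13, control mean -1.70 ± 0.090). Slc24a1 and Cnga1, the exchanger and a channel subunit of the same outer segment membrane, had the smallest shift. Their log2 ratio was 1.62, 1.43 and 1.46 in the blue libraries and 1.45 and 1.38 in the controls, and the groups overlapped (exact permutation p = 0.4, adjusted p = 0.4).

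**Figure D3:**
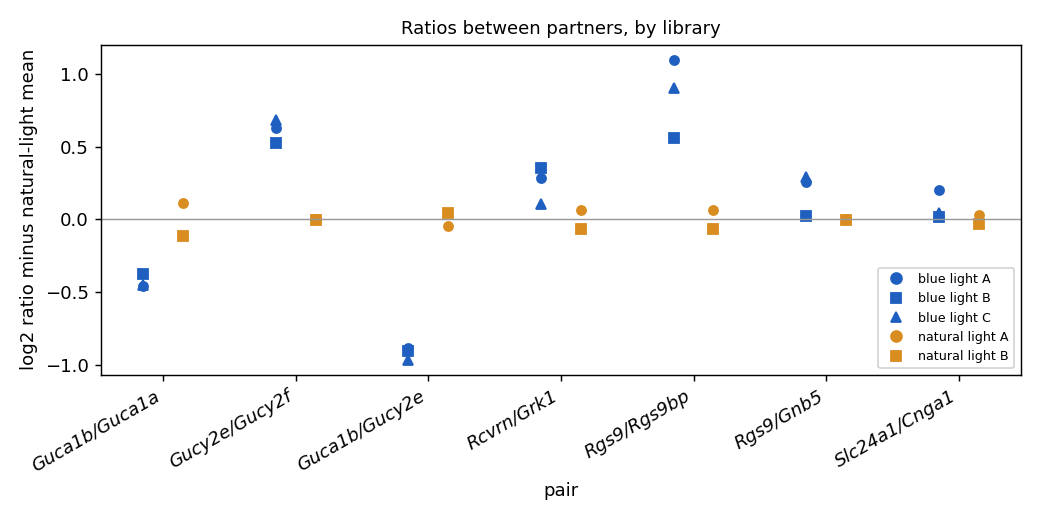
Log2 ratio between 2 partners in each library, minus the natural-light mean of that pair, with blue-light libraries left of natural-light libraries. Blue and control ratios are apart for 6 of the 7 pairs, and overlap for Slc24a1 to Cnga1.

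Among the blue libraries, blue A was the lowest for 10 of the 10 genes, and blue B the highest for 9, with blue C the highest for Rgs9. Control A was above control B for 8 of the 10. The mean centred log2 level of the 10 genes (each gene's mean over the 5 libraries subtracted) was -0.88, -0.30 and -0.47 in blue A, B and C, and 0.89 and 0.76 in control A and B. The 15 skeletal muscle genes, which mark eye muscle left on the eyeball, stood at levels of 0.65, -0.38 and -0.32 in the blue libraries and -0.55 and 0.60 in the controls, so blue A and control B held the most. Their CPM summed to between 894 and 1737 in the blue libraries and between 825 and 1785 in the controls, 0 of the 15 genes were called in edgeR, and no defining gene was at 0. The share of Rn45s, the ribosomal RNA precursor gene, was 10.8%, 8.69% and 14.4% in the blue libraries and 4.30% and 14.1% in the controls. With that share as a covariate, an alternative chosen after seeing the data, edgeR called 0 of the 10 (adjusted p from 0.0748 to 0.158, all with an unadjusted p under 0.05), beside a background of 0.0316% of all tested genes called lower, and log2 fold changes ran from -1.95 to -0.77. The 10 adipocyte genes, which mark orbital fat, stood at levels of 1.09, -0.36 and 0.81 in blue A, B and C and -0.96 and -0.59 in the controls, higher in every blue library. Their CPM summed to between 75.4 and 91.8 in the blue libraries and between 52.7 and 66.8 in the controls. In edgeR 1 of the 10 was called higher, adipsin (Cfd, log2 fold change 2.55, adjusted p = 0.0468), beside 126 of all 18988 tested genes. The log2 fold change was negative for 1 of the 10. Cidec and Lep were at 0 in both controls. In blue B Lep was also at 0, and Cidec stood at 0.15 CPM. The part of muscle and fat in these results was not tested.

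The other steps of the rod response were set beside these genes. These lists too were chosen with earlier results of these data known, so their counts are descriptions and no independent test. Over all 18988 tested genes, 295 (1.55%) were called lower and 126 higher. Of the 9 activation genes, 8 were called lower in edgeR. All 9 had a negative log2 fold change, with a median of -1.59. The rod transducin beta subunit Gnb1 fell by 1.59 (adjusted p = 0.0194 in edgeR), the gamma subunit Gngt1 fell by 1.18 (adjusted p = 0.0146 in edgeR) and the inhibitory phosphodiesterase subunit Pde6g fell by 1.74 (adjusted p = 0.0249 in edgeR). The 17 rod structure and identity genes had a median of -1.28, with 12 called lower and 0 higher in edgeR. Among them Reep6, which works in the endoplasmic reticulum of rods, had a log2 fold change of -1.85, and the rod transcription factor Nr2e3 one of -1.41. The log2 fold change was negative for 16 of the 17. Impg2 went the other way and was higher in every blue library (log2 fold change 0.49, adjusted p = 0.117 in edgeR). For Samd7 the groups overlapped (log2 fold change -0.22, adjusted p = 0.803 in edgeR). The sum of rod structure genes was 3407, 4928 and 4507 CPM in blue A, B and C, and 9273 and 8680 CPM in control A and B. Measured from the rod structure median, the log2 difference of Guca1b was -0.70 and that of Rgs9 0.49, while Grk1 lay at -0.056. That offset was not tested.

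Of 16 other photoreceptor genes of recovery, calcium entry and cyclase transport, 8 were called lower and 0 higher in edgeR. This list was also chosen with earlier results known, and 1.55% of all tested genes were called lower. Its median log2 fold change was -0.90, and the value was negative for 14 of the 16. Cacna1f, the calcium channel of the photoreceptor terminal, fell by 1.07 (SE 0.13), and Unc119, a carrier of transducin, by 1.27 (SE 0.16). The potassium channel subunit Kcnv2 fell by 1.55 (SE 0.20), and cone arrestin (Arr3), which is also on the cone list, by 0.90 (SE 0.12). Adjusted p of these 4 lay between 0.0218 and 0.0281 in edgeR.

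Relatives of the 10 genes from the same protein families, used in other cells or steps, were the contrast within the table. Of 32 such genes 30 were in the table and 28 were tested, with a median log2 fold change of 0.089. In edgeR 1 was called lower, Gnb1, which is also in the activation list, and 1 was called higher. Over all 18988 tested genes, 295 were called lower and 126 higher. The gene called higher was Gnb3, the transducin beta subunit of cones, which is used in ON bipolar cells too. It stood at 242, 323 and 306 CPM under blue light, against 98.8 and 85.6 CPM in natural light (log2 fold change 1.65, SE 0.15, adjusted p = 0.0172 in edgeR). Gnb2, a widely used beta subunit, had a log2 fold change of 0.39 (adjusted p = 0.0968 in edgeR), and the neuronal calcium sensor Hpcal1 -0.40 (adjusted p = 0.123 in edgeR). Rgs7 and Rgs11, the bipolar partners of Gnb5, had log2 fold changes of 0.14 and 0.10 (adjusted p = 0.463 and 0.781 in edgeR). Of the other retinal lists, 13 cone genes had a median log2 fold change of -0.18, with 1 called lower and 1 higher in edgeR. The cone gene called higher was again Gnb3, which is also among the relatives, and the one called lower was Arr3. The 14 bipolar genes had a median of 0.14. In edgeR 1 of them was called lower, Prkca (log2 fold change -0.79, adjusted p = 0.0218). Genes of both lists went either way, with negative values for 8 of the 13 cone and 5 of the 14 bipolar genes. The 12 amacrine and horizontal cell genes and the 10 ganglion cell genes had medians of -0.037 and -0.0071, with 0 called in edgeR. Muller glia genes had a median of 0.49, with 2 of 10 higher in edgeR. Of these 10, 2 had a negative log2 fold change. One was Glul, which was lower in every blue library (log2 fold change -0.48, adjusted p = 0.0537 in edgeR). Of the glial stress genes, picked with their rise in these data known, 10 of 10 were higher. Of 10 pigment epithelium and 13 lens genes 0 were called in edgeR, with medians of 0.12 and 0.037.

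**Figure D4:**
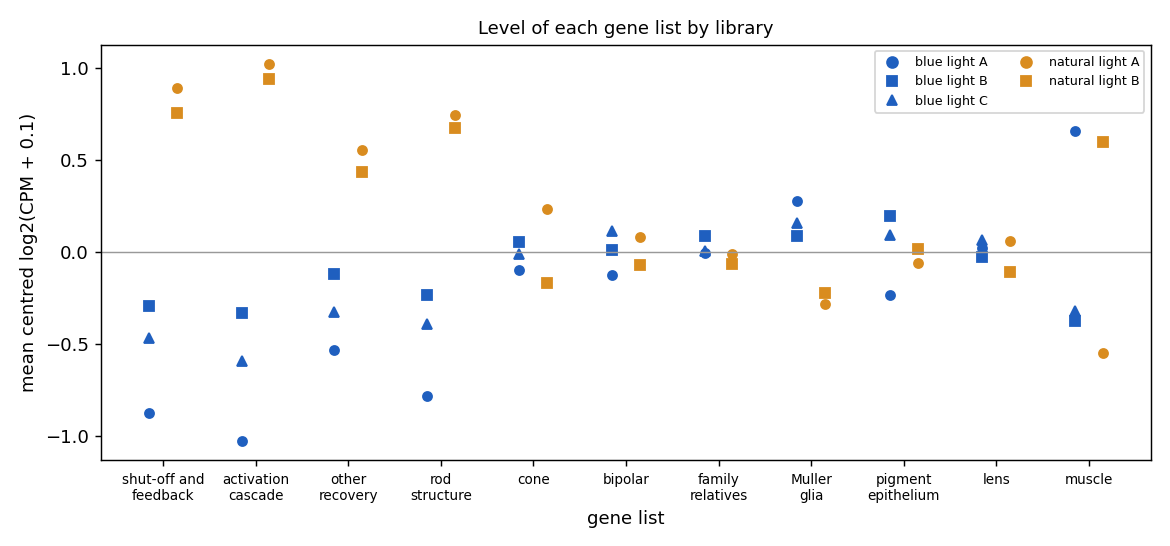
Level of each gene list in each library, as the mean over its genes of log2(CPM + 0.1) after subtracting each gene's mean over the 5 libraries, with blue-light libraries left of natural-light libraries. The 4 photoreceptor lists on the left are lower in every blue library than in both controls, and the muscle list is high in blue A and control B.

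The profile of the 8 called genes over the 5 libraries was compared with all other tested genes by the root mean square difference of centred log2 levels. The 5 nearest non-members were Ppef2, a photoreceptor phosphatase, at 0.025, the channel subunit Cngb1 at 0.026, Nr2e3 at 0.040, the disc rim protein Rom1 at 0.045 and the retinoid transporter Abca4 at 0.058. Among the 10 genes themselves, Slc24a1 lay nearest to the mean profile at 0.041 and Rgs9 farthest at 0.33. Ppef2 stood at 37.0, 57.3 and 49.3 CPM in the blue libraries and at 129 and 122 CPM in the controls. This likeness rests on 5 libraries and mostly on the gap between groups.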

How the data were processed

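The deposited mRNA table holds whole-number values per gene symbol that are taken as estimated counts, not normalised by the authors, since the submitters' processing notes name StringTie and low values cluster (1051 values of 4 and 1107 of 5, against 751 of 3 and 580 of 6). The notes also name bcl2fastq 2.0, HISAT2, DESeq2, limma and mm10, without roles. Per the labels' protocols, ribosomal RNA was removed from total RNA, which was then fragmented and primed at random. Library totals ran from 87071487 to 107660103. As 1 fragment may add several units, no counting intervals are given, and the miRNA table was not used.

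All genes were fitted together in edgeR 4.0.16 (R 4.3.3) with TMM, filterByExpr, its quasi-likelihood F-test, and p-values were adjusted by Benjamini-Hochberg. SE is the absolute log2 fold change divided by the square root of F. Ratios used log2(CPM + 0.1) and an exact permutation test (scipy 1.17.1). Alternatives were DESeq2 1.42.0, limma-voom (limma 3.58.1), other scalings and filters, values divided by 4, summed overlapping genes, the letter of the title as a block, and each library left out in turn. Where 1 control was left, its spread was taken from the blue libraries. The pipeline was tested on simulated counts. All 10 genes and the lists were chosen with earlier results of these data known. Named list genes were up to 4 of those with the smallest p. The exceptions are Slc24a2, Rgs7, Rgs11, Impg2, Samd7 and Lep, which were chosen after their values were seen. The nearest profiles were taken without Gm and Rik symbols. A gene of the activation list is not reported here.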

Additional observations from a re-analysis of the deposited data

How the results depend on the processing

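Of the 10 genes, 8 were called lower and 0 higher in edgeR. With 1 library left out the lower count ran from 0 (without blue C, control A or control B, where 5, 2 and 0 of all tested genes were called lower) to 9 (without blue A, with 213 of all genes), and was 8 without blue B (185 of all genes). It was 0 with the letter as a replicate block, where 0 of all genes were called lower, and 0 with the Rn45s share as a covariate, where 6 were, each with all 10 at an unadjusted p under 0.05. The letters are not stated to pair libraries, and deviations of control A correlated across genes with those of blue A at -0.23 and with those of blue B at 0.19. Of the other settings, library totals as the only scaling gave 6, with 150 of all 18988 tested genes called lower. A mean CPM of at least 5 gave 10, with 347 of 12880, and DESeq2 gave 10, with 864 of 18066. All others gave 8, with between 239 and 331 of all tested genes called lower. No log2 fold change or partner ratio changed sign in the alternatives run. With all libraries in edgeR, 295 genes were called lower, and the cause of the lost calls was not tested.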
